A study of Homo sapiens with 2 samples.

Results

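The 5 genes described here are PLAU and PLAT, which encode the urokinase-type and the tissue-type activator, PLAUR, which encodes the urokinase receptor, and the serpin genes SERPINE2 (protease nexin-1) and SERPINB2 (plasminogen activator inhibitor 2). They were taken by name from the 19362 genes with values, through Ensembl identifiers, and all 5 were found. RNA sequencing was done on FTC-133, an established human cell line from a follicular thyroid carcinoma, transfected either with siRNA against CHI3L1 (1 library) or with a control siRNA (1 library). CHI3L1 encodes a secreted chitinase-like glycoprotein, and the comparison asks which transcripts differ when it is silenced. With 1 library per group there is no replicate check, no p-value is given, and each difference is between these libraries and not between the conditions.

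The plasminogen activator system turns the plasma zymogen plasminogen into plasmin, a serine protease that cuts fibrin and other matrix proteins and activates other proteases. The urokinase-type activator works mostly at the cell surface, bound to a GPI-anchored receptor, and the tissue-type activator works mostly on fibrin. Serpins inhibit both activators by a suicide mechanism in which the protease cuts the serpin's reactive loop and stays covalently bound. Tumour cells of epithelial origin, thyroid carcinoma cells among them, often make the urokinase arm of this system.

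Recovered reads in the table came to 19467345 in the CHI3L1 siRNA library and 15837449 in the control siRNA library. CPM are read counts scaled per library, and they sum to 998507 in the CHI3L1 siRNA library and 1001495 in the control siRNA library. CHI3L1 itself stood at 48.6 CPM in the CHI3L1 siRNA library and 140 CPM in the control siRNA library. Its ratio was 0.347, with a 95% exact interval of 0.321 to 0.374. All intervals given here come from the numbers of reads alone, cover counting error only, and may be too narrow, as the protocols describe no molecular identifiers. Of the thyroid markers, NKX2-1 (112 CPM in the CHI3L1 siRNA library and 88.6 CPM in the control siRNA library) and PAX8 (71.2 CPM with CHI3L1 siRNA and 82.8 CPM with control siRNA) were detected, whereas thyroglobulin (TG) was near 0, at 0.718 CPM with CHI3L1 siRNA and 0.632 CPM with control siRNA. Markers of endothelial cells summed to 13.2 CPM in the CHI3L1 siRNA library and 15 CPM in the control siRNA library, and those of immune cells to 6.0 CPM with CHI3L1 siRNA and 5.38 CPM with control siRNA. The 8 fibroblast markers summed to 7423 CPM in the CHI3L1 siRNA library and 3298 CPM in the control siRNA library, mostly from COL1A2 and COL1A1. Of the others, THY1 stood at 745 CPM in the CHI3L1 siRNA library and 558 CPM in the control siRNA library, FAP at 240 CPM with CHI3L1 siRNA and 223 CPM with control siRNA, LUM at 40.2 CPM with CHI3L1 siRNA and 51.8 CPM with control siRNA, and PDGFRB at 7.90 CPM with CHI3L1 siRNA and 7.15 CPM with control siRNA. DCN stood at 1.49 CPM with CHI3L1 siRNA and 1.20 CPM with control siRNA, and PDGFRA at 0.103 CPM with CHI3L1 siRNA and 0.569 CPM with control siRNA. The part of these genes in the results below was not tested.

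In the CHI3L1 siRNA library the inhibitor SERPINE2 and the receptor PLAUR were at least 1.5-fold higher, PLAU was 1.44-fold higher, and PLAT was nearly level. SERPINB2 was close to absent in both libraries. In bulk RNA such as this, fewer cells that make a transcript and less of it per cell cannot be told apart. A gene counts as higher or lower at 1.5-fold on the log2 scale after adding 1 CPM to each library, and the count covers genes whose average over the pair of libraries reached 1 CPM. By this rule 2 of the 4 members with such a mean were higher and 0 were lower. Of all 14815 genes with such a mean, 7.73% were higher and 13.4% were lower, and their median log2 fold was 0.01. The median of the 4 members was 0.56. The members were chosen with earlier results of these data known, so their counts and median describe these libraries and support nothing independently. PLAUR passed the rule narrowly, with a log2 fold of 0.586 against 0.585. Among the 4370 genes averaging 50 CPM or more, where all 4 of these members lie, 11.0% were higher and 15.9% lower.

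**Figure D1:**
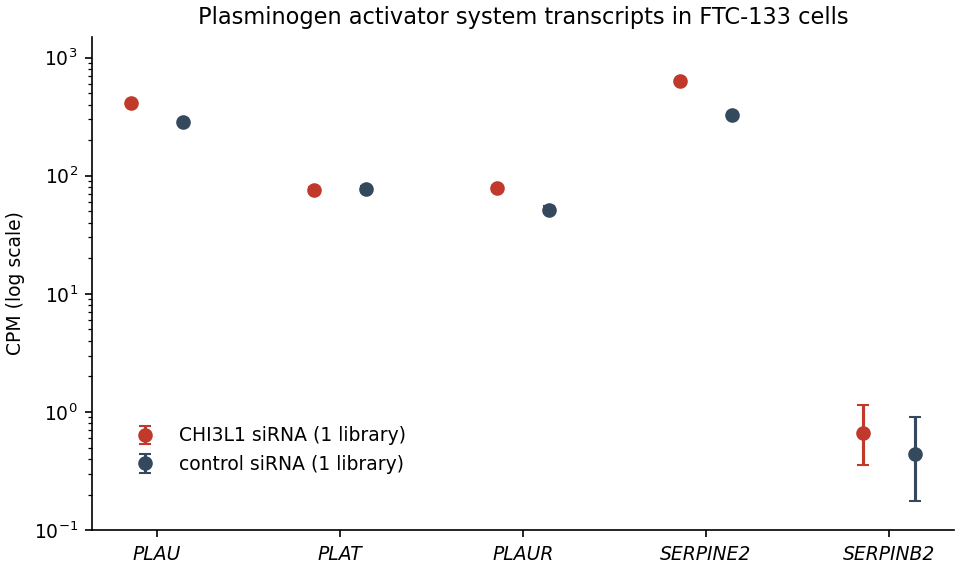
Level of each member, in CPM on a log scale, with 1 point per library and 95% exact Poisson intervals of the reads as bars. SERPINE2 has the highest CPM in each library (not scaled for gene length) and SERPINB2 lies below 1 CPM in both, where the bars overlap; for most other genes the bars are shorter than the point.

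PLAU (ENSG00000122861, chr10:73909177-73917497, plus strand, GRCh38) encodes the urokinase-type activator. It stood at 411 CPM (8021 reads) in the CHI3L1 siRNA library, while the control siRNA library had 286 CPM (4517 reads). The ratio was 1.44 (1.39 to 1.49), so its counting interval lay above 1 and wholly under 1.5-fold. The log2 fold was 0.52, and 10.4% of all tested genes had a fold at least as high. Exons of the antisense gene C10orf55 overlap 916 bases of PLAU exons, and the counting is not stated to use strand, so reads there cannot be told apart. C10orf55 held 62 reads in the CHI3L1 siRNA library and 26 in the control siRNA library, few beside those of PLAU. These counts are per gene and do not show how many reads fell in the shared bases or were left uncounted there.

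PLAT (ENSG00000104368, chr8:42175233-42207724, minus strand) encodes the tissue-type activator. It stood at 75.8 CPM (1477 reads) in the CHI3L1 siRNA library and 77.0 CPM (1218 reads) in the control siRNA library. The ratio of 0.984 had an interval of 0.911 to 1.06, which holds 1. The activators therefore had different folds in this pair of libraries: their counting intervals do not overlap.

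PLAUR (ENSG00000011422, chr19:43646095-43670547, minus strand) encodes the receptor that holds urokinase at the cell surface. It stood at 78.0 CPM (1520 reads) in the CHI3L1 siRNA library, while the control siRNA library had 51.6 CPM (816 reads). The ratio was 1.51 (1.39 to 1.65). Its log2 fold of 0.586 lies just above the 0.585 that the 1.5-fold rule asks for, and the call was lost with 10 CPM added (0.51) and with centring on genes of at least 50 CPM (0.49).

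SERPINE2 (ENSG00000135919, chr2:223975112-224039319, minus strand) encodes protease nexin-1, a secreted serpin that inhibits thrombin, urokinase and plasmin. It stood at 630 CPM (12283 reads) in the CHI3L1 siRNA library, while the control siRNA library had 324 CPM (5131 reads), the largest difference among the members. The ratio was 1.94 (1.88 to 2.01) and the log2 fold 0.96, with 1.31% of all tested genes at least as high. SERPINE2 made up 52.7% of the members' reads in the CHI3L1 siRNA library and 43.9% in the control siRNA library, while the share of PLAU was 34.4% with CHI3L1 siRNA and 38.6% with control siRNA and that of PLAT 6.34% with CHI3L1 siRNA and 10.4% with control siRNA.

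SERPINB2 (ENSG00000197632, chr18:63871692-63903890, plus strand) encodes plasminogen activator inhibitor 2, a largely intracellular serpin that monocytes and keratinocytes induce. It had 13 reads (0.667 CPM) in the CHI3L1 siRNA library and 7 reads (0.443 CPM) in the control siRNA library. The ratio of 1.51 had an interval of 0.559 to 4.46, so no difference was detectable at this depth. Its mean was under 1 CPM, and it was left out of the counts. Its exons share 547 bases with those of SERPINB10 on the same strand, which leaves some of these reads uncertain, and SERPINB10 was not analysed here.

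**Figure D2:**
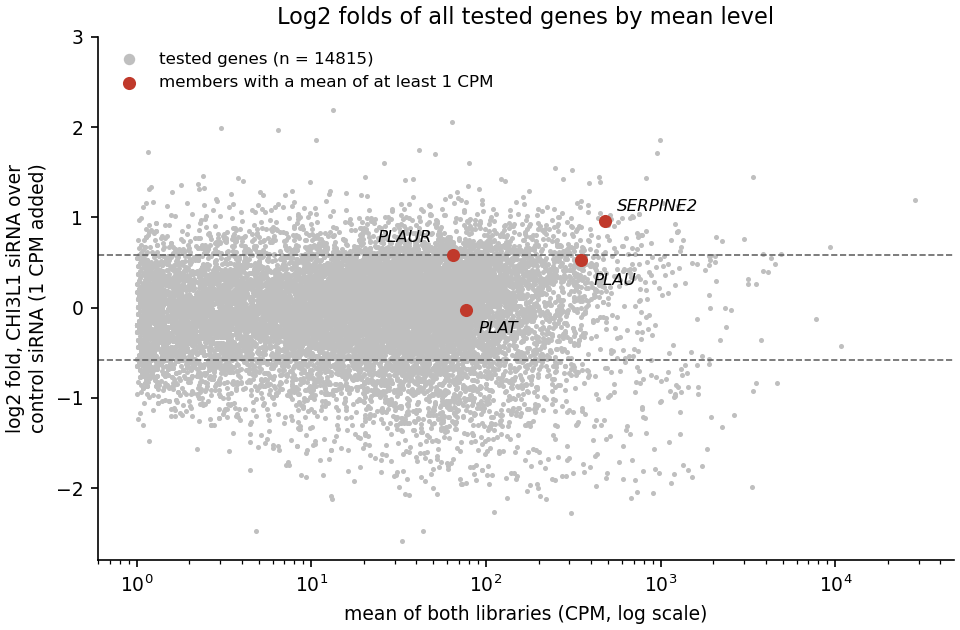
Log2 fold (CHI3L1 siRNA over control siRNA, 1 CPM added) against the mean CPM of both libraries on a log scale, for the 14815 tested genes in grey and the 4 tested members in red; dashed lines mark 1.5-fold. SERPINE2 lies at 0.96 near the upper edge of genes of its level, PLAUR on the dashed line, PLAU just under it and PLAT near 0.

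Sequences before the annotated starts of the members are shown because PLAU, PLAUR and SERPINE2 all had ratios above 1 whose counting intervals leave out 1. RefSeq (GRCh38.p14) gave windows of 250 bases before a start for 4 members, with 2 windows each for PLAU and SERPINE2. Both strands of each window were searched for TGANTCA (the AP-1 site), GGGCGG (the GC box), ACGTG (the core of the hypoxia response element), CCAAT and TATAAA. Of 35116 such windows in the RefSeq table, 6.57% hold TGANTCA, 42.6% GGGCGG, 18.5% ACGTG, 32% CCAAT and 10.7% TATAAA. In the lines below, capitals mark every match. The first is the window before an inner start of SERPINE2 (chr2:224031479-224031728, minus strand), where 1 coding GENCODE transcript begins. The outer start of the principal transcript lies upstream at 224039319, and the counts are per gene, so they do not say which start was used. The others are the bases before the SERPINB2 start (chr18:63887455-63887699, plus strand), 30 bases around the PLAUR match (chr19:43670337-43670366, minus strand) and 30 bases from 59 to 30 before the PLAU start nearest that of its principal transcript (chr10:73911073-73911102, plus strand).
SERPINE2: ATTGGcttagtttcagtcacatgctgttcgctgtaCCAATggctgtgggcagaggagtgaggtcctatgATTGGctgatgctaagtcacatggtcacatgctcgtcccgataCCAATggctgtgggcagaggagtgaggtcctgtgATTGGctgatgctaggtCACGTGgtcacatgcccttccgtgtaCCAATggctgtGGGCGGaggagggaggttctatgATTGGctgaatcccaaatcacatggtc
SERPINB2: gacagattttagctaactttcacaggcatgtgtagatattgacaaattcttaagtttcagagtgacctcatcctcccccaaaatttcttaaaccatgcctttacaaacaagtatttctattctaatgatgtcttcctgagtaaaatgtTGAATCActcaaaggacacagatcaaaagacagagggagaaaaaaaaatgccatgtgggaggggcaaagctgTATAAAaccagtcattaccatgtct
PLAUR: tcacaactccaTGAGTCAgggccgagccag
PLAU: agagggagGGGCGGcgccgGGGCGGgccct
The inner SERPINE2 window holds 7 matches to CCAAT on either strand, a count that 7 of the 35116 windows (0.0199%) reach. The window repeats itself with a period of 77 bases: 127 of 173 positions (73.4%) equal the base 77 positions on. The same window holds ACGTG on both strands, overlapping as CACGTG from 87 bases before the start, and 1 GGGCGG. The other SERPINE2 window (chr2:224038641-224038890, minus strand), within 50 bases of whose start no GENCODE transcript begins, holds no CCAAT and has GGGCGG at 230 and 183 bases before its start. The PLAUR match to TGANTCA begins 186 bases before its RefSeq start. The principal GENCODE transcript of PLAUR starts further upstream, at 43670350, so the match spans that start and does not lie upstream of it. The match of SERPINB2 to TGANTCA begins 102 bases before its start, which also has TATAAA at 30 bases. The PLAU window shown in part above holds 3 GGGCGG, at 66, 51 and 40 bases before its start, of which the line shows the last pair. The other PLAU window (chr10:73910360-73910609, plus strand) holds no GGGCGG and has CCAAT at 182 bases. A match is a description of these letters and not a site shown to be used.

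Levels of different genes can be compared only per length. As CPM per kilobase of annotated exon, PLAU was highest at 139 in the CHI3L1 siRNA library and 96.8 in the control siRNA library. SERPINE2 came next, at 70.9 with CHI3L1 siRNA and 36.5 with control siRNA. PLAUR followed at 17.5 with CHI3L1 siRNA and 11.6 with control siRNA, and PLAT at 11.4 with CHI3L1 siRNA and 11.6 with control siRNA. SERPINB2 was lowest in both, at 0.243 with CHI3L1 siRNA and 0.161 with control siRNA. On this scale PLAUR and PLAT did not differ beyond counting error in the control siRNA library, where the intervals were 10.8 to 12.4 for PLAUR and 11.0 to 12.3 for PLAT, while PLAUR was above PLAT in the CHI3L1 siRNA library. The annotated exons of SERPINE2 add up to 8891 bases, against 2195 in its principal transcript. With the length of the principal transcript, SERPINE2 was the highest member in both libraries, at 287 CPM per kilobase in the CHI3L1 siRNA library and 148 in the control siRNA library, so the order of PLAU and SERPINE2 depends on the length used. PLAUR was then above PLAT in both libraries, at 50.4 against 28 CPM per kilobase in the CHI3L1 siRNA library and at 33.3 (31.1 to 35.7) against 28.5 (26.9 to 30.1) in the control siRNA library, so the order of this pair in the control siRNA library depends on it too.

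Ratios of these length-scaled levels within a library do not depend on the scaling between libraries. Per annotated exon length, PLAU over PLAT was 12.2 in the CHI3L1 siRNA library and 8.32 in the control siRNA library, and per principal transcript it was 6.33 with CHI3L1 siRNA and 4.32 with control siRNA. PLAUR over PLAU was nearly level between the libraries, at 0.125 with CHI3L1 siRNA and 0.120 with control siRNA per exon length, and at 0.284 with CHI3L1 siRNA and 0.271 with control siRNA per principal transcript. The inhibitors SERPINE2 and SERPINB2 over the activators PLAU and PLAT came to 0.471 per exon length in the CHI3L1 siRNA library and 0.338 in the control siRNA library. With the principal transcripts the same ratio was 1.4 with CHI3L1 siRNA and 0.977 with control siRNA. A gene's length is the same in both libraries, and SERPINE2 had a larger ratio between the libraries than both activators. SERPINB2 adds little to the inhibitor sum, and its ratio interval (0.559 to 4.46) holds the ratios of both activators. The larger value in the CHI3L1 siRNA library under both lengths therefore restates the SERPINE2 and activator folds and is no separate result.

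Folds of this pair of libraries followed transcript length. The median log2 fold was -0.62 for 599 tested coding genes whose principal transcript does not exceed 1000 nt and -0.24 for the 2492 between that and 2000 nt. It was 0.03 for the 4940 between 2000 and 4000 nt and 0.25 for the remaining 4627, all longer. The members' principal transcripts measure 2321 nt (PLAU), 2706 nt (PLAT), 1548 nt (PLAUR), 2195 nt (SERPINE2) and 1913 nt (SERPINB2), so none lies in the longest class. A spline trend in transcript length, coding length and GC content was therefore subtracted. After it, SERPINE2 had a log2 fold of 1.03 and PLAUR of 0.76, both larger than before, while PLAU had 0.49 and PLAT -0.15. In the same corrected values, 2 of the 4 members were at least 1.5-fold higher and 0 lower, against 6.59% and 6.82% of 12658 coding genes.

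**Figure D3:**
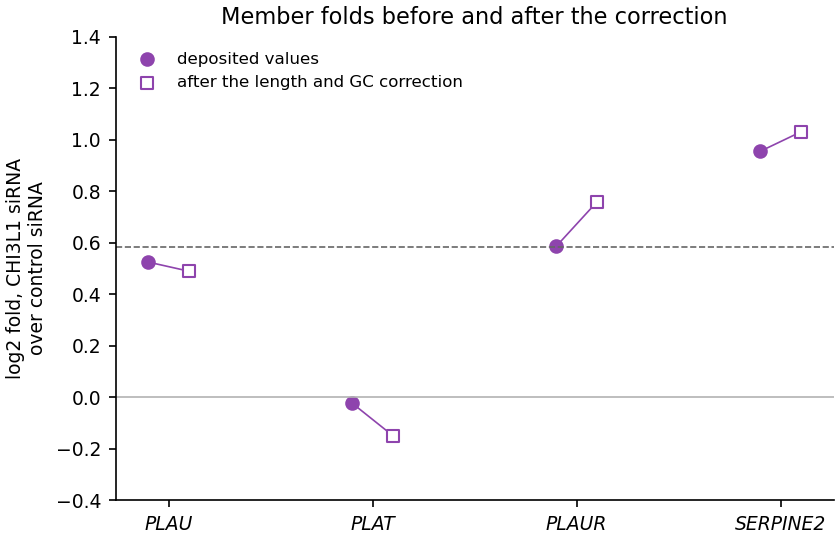
Log2 folds of the 4 tested members in the deposited values (circles) and after the correction for transcript length, coding length and GC content (squares); the dashed line marks 1.5-fold. PLAUR and SERPINE2 move up to 0.76 and 1.03, PLAU and PLAT move down, and none of the 4 crosses 0.

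The system's other genes were taken in 11 lists of 145 genes by role, of which 104 have values here and 87 averaged 1 CPM or more. The lists were chosen with earlier results of these data known, so their counts describe these libraries and support nothing independently. Of the 87, 20 (23.0%) were at least 1.5-fold higher and 9 (10.3%) lower, against 7.73% and 13.4% of all tested genes. Their median log2 fold was 0.23. After the length correction the counts were 19 higher and 8 lower, and the median was 0.13, against 0.04 over all coding genes with a corrected fold.

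**Figure D4:**
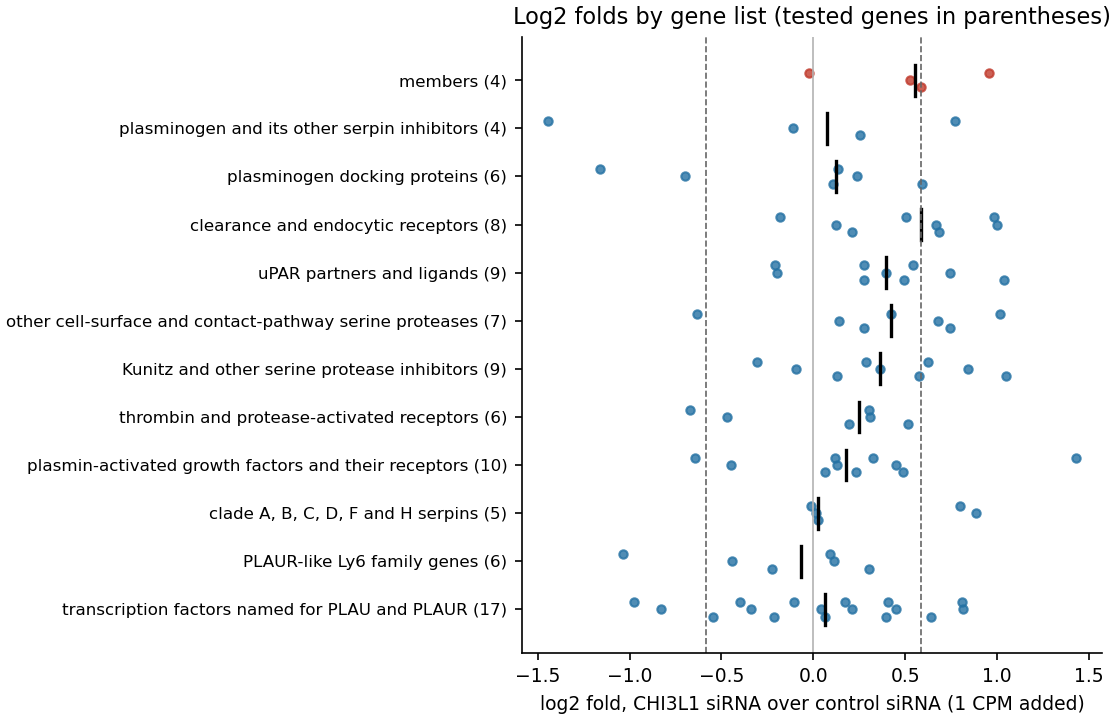
Log2 folds (CHI3L1 siRNA over control siRNA, 1 CPM added) of the tested members in red and of the tested genes of each of the 11 lists in blue, 1 point per gene; black bars are medians and dashed lines mark 1.5-fold. In these deposited values the list of clearance and endocytic receptors has the highest median, 0.59, and the Ly6 family genes the lowest, -0.07. Neither rank holds after the length correction, where these medians are 0.11 and 0.17.

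In the list of plasminogen and further serpin inhibitors of the system, 4 genes were tested. All were serpins, and plasminogen itself (PLG) was not among them. Of these serpins 1 was higher and 1 was lower, with a median of 0.07. SERPINA5, the protein C inhibitor, was higher, at 11.0 CPM in the CHI3L1 siRNA library and 6.01 CPM in the control siRNA library. SERPINI1, which encodes neuroserpin, an inhibitor of the tissue-type activator, stood in the other direction, at 32.4 CPM (632 reads) with CHI3L1 siRNA, against 89.9 CPM (1421 reads) with control siRNA. Its ratio was 0.361 (0.328 to 0.396), and its log2 fold of -1.44 was -1.09 after the correction.

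Of all 32 listed serpin genes, members included, 16 have values and 10 were tested, of which 4 were higher and 1 lower, with a median log2 fold of 0.14. Besides SERPINE2 and SERPINA5, the higher ones were SERPINH1 and SERPINB5. SERPINH1 encodes HSP47, a collagen chaperone of the endoplasmic reticulum that inhibits no protease, and stood at 980 CPM in the CHI3L1 siRNA library and 562 CPM in the control siRNA library (log2 fold 0.80). SERPINB5, which encodes maspin, had 137 reads in the CHI3L1 siRNA library and 53 in the control siRNA library, a ratio of 2.10 (1.52 to 2.94). Both stayed past 1.5-fold after the correction, at 0.82 and 1.05.

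Plasminogen docking proteins hold the zymogen at the cell surface, and 1 of 6 tested was higher and 2 were lower (median 0.12). PLGRKT, a transmembrane plasminogen receptor, stood at 33.1 CPM in the CHI3L1 siRNA library, against 75.4 CPM in the control siRNA library (log2 fold -1.16), but its fold was -0.36 after the length correction. HMGB1 had a log2 fold of -0.70, and -0.44 after it. The glycolytic enzyme ENO1, which also binds plasminogen at the surface, stood at 5897 CPM in the CHI3L1 siRNA library and 3911 CPM in the control siRNA library, a log2 fold of 0.59. ENO1 and HMGB1 have processed pseudogenes of like sequence, which leaves part of their reads uncertain. After the correction S100A10, the partner of annexin A2 in binding plasminogen and the tissue-type activator, had a log2 fold of 0.79, against 0.24 before it.

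The list of clearance and endocytic receptors had the highest list median in the deposited values, 0.59, with 4 of 8 tested genes higher and 0 lower. Besides receptors that clear activator-inhibitor complexes, the list holds other endocytic receptors and LRPAP1, which encodes a protein that associates with such receptors. After the length correction the median was 0.11, and the highest was that of the Kunitz-type and other inhibitors, 0.33. LRP1, the endocytic receptor that takes up urokinase and the tissue-type activator bound to serpins, stood at 922 CPM in the CHI3L1 siRNA library, against 461 CPM in the control siRNA library (ratio 2.0, 1.95 to 2.05). VLDLR, a related receptor, stood at 107 CPM with CHI3L1 siRNA and 53.9 CPM with control siRNA. MRC2, a collagen receptor that associates with PLAUR, had a log2 fold of 0.68, and IGF2R, which binds PLAUR, of 0.67. After the length correction VLDLR alone of the 8 was at least 1.5-fold higher (0.67), LRP1 had 0.49, MRC2 0.32 and IGF2R 0.16, and LRP8 was lower (-0.60).

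Of partners and ligands of the urokinase receptor, 2 of 9 tested were higher and 0 lower (median 0.40). The list median was 0.10 after the length correction, against 0.04 over all coding genes with a corrected fold. The integrin subunit ITGA5, of the fibronectin receptor, stood at 1005 CPM in the CHI3L1 siRNA library and 490 CPM in the control siRNA library, and ITGAV, of the vitronectin receptors, at 485 CPM with CHI3L1 siRNA and 290 CPM with control siRNA. Both stayed past 1.5-fold after the correction, with log2 folds of 0.73 and 0.71. Vitronectin itself (VTN), a matrix ligand of PLAUR, was under 1 CPM in both libraries, at 0.615 CPM with CHI3L1 siRNA and 0.506 CPM with control siRNA.

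Among other serine proteases of the surface and the contact pathway, 3 of 7 tested were higher and 1 was lower (median 0.42). F3, which encodes tissue factor, the cell-surface starter of coagulation, stood at 231 CPM in the CHI3L1 siRNA library, against 114 CPM in the control siRNA library. On the log2 scale the fold came to 1.02, and to 1.22 after the correction. It is no protease but the cofactor of one. PRSS23 and the secreted protease HTRA1 had log2 folds of 0.75 and 0.68, and 0.65 and 0.69 after the correction. F12 had 32 reads in the CHI3L1 siRNA library and 49 in the control siRNA library, and these are uncertain, since exons of GRK6 on the other strand overlap it with 583 reads with CHI3L1 siRNA and 714 with control siRNA.

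In the list named for Kunitz-type and other serine protease inhibitors, 3 of 9 tested genes were higher and 0 lower (median 0.36). Whether each listed gene, SPOCK1 among them, acts as a serine protease inhibitor was not tested. SPOCK1, which encodes an extracellular proteoglycan, stood at 369 CPM in the CHI3L1 siRNA library and 178 CPM in the control siRNA library. APP, whose longer isoforms carry a Kunitz domain, stood at 1052 CPM with CHI3L1 siRNA and 586 CPM with control siRNA. TFPI, the inhibitor of the tissue factor pathway, had a log2 fold of 0.63 and of 1.11 after the correction, and TFPI2 of 0.36 and 0.77.

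Of the thrombin and protease-activated receptors, 0 of 6 tested were higher and 1 was lower (median 0.25): PROCR, the endothelial protein C receptor, with a log2 fold of -0.67 and of -0.39 after the correction. In the list of growth factors that plasmin can release or activate and their receptors, 1 of 10 tested genes was higher and 1 lower (median 0.18). The higher gene, LTBP1, encodes neither a growth factor nor a receptor but a protein that tethers latent TGF-beta to the matrix. LTBP1 stood at 179 CPM in the CHI3L1 siRNA library, against 66.0 CPM in the control siRNA library (ratio 2.72, 2.53 to 2.91). BDNF stood at 29.4 CPM with CHI3L1 siRNA and 46.5 CPM with control siRNA, a log2 fold of -0.64. After the correction the BDNF fold was -0.57, which no longer passed 1.5-fold. Exons of BDNF-AS overlap BDNF on the other strand, with 47 reads with CHI3L1 siRNA and 80 with control siRNA, beside 574 and 736 of BDNF in those libraries.

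Genes of the Ly6 family, whose Ly6-type protein domain PLAUR carries, had 0 of 6 tested genes higher and 1 lower (median -0.07). That gene, LYPD1, had 11 reads in the CHI3L1 siRNA library and 35 in the control siRNA library, and the overlapping gene GPR39 on the other strand had 83 with CHI3L1 siRNA and 57 with control siRNA. CD59, the most abundant member, stood at 209 CPM with CHI3L1 siRNA and 169 CPM with control siRNA, with a log2 fold of 0.30 before and 0.84 after the correction.

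Of 17 transcription factors listed as candidate regulators of PLAU or PLAUR, 3 were higher and 2 lower (median 0.06). After the length correction 2 were higher and 3 lower (median -0.03). FOSB stood at 131 CPM in the CHI3L1 siRNA library, against 260 CPM in the control siRNA library, and FOS at 263 CPM with CHI3L1 siRNA, against 468 CPM with control siRNA, with log2 folds of -0.98 and -0.83. FOSL2, another AP-1 subunit, stood at 356 CPM in the CHI3L1 siRNA library and 202 CPM in the control siRNA library (log2 fold 0.81, and 0.47 after the correction). ETS2 had a log2 fold of 0.81, and ETS1, which passed 1.5-fold as the third higher gene, of 0.64. After the correction FOSB had -1.13, FOS -0.82, ETS2 0.63 and ETS1 0.63. JUN, the main partner of FOS proteins in AP-1, stood at 479 CPM with CHI3L1 siRNA and 459 CPM with control siRNA, a log2 fold of 0.06.

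Among the tested genes nearest to each member in log2(CPM + 1) of both libraries, by Euclidean distance over 2 points only, were SCARB2 and DST for PLAU, CDKN1B for PLAT, ASH1L and MED13 for PLAUR, and GRN and PEG10 for SERPINE2. The distances of those named were at most 0.128, and with 2 libraries such likeness is one of level and fold alone.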

How the data were processed

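A single table of CPM for both libraries was deposited; the unit follows from the values, which step by 0.0513 CPM per read in the CHI3L1 siRNA library and 0.0632 CPM in the control siRNA library, on top of a constant worth 0.001 read. Reads were recovered from these steps (100% of values within 0.01 read of a whole number). Per the submitters' processing notes, FastQC, MultiQC, Trimmomatic, HISAT2, featureCounts and GRCh38 were used, without versions; normalisation, filter and strand setting, like the siRNA sequences, the time after transfection and the number of cultures, are not stated there or in the labels. Per the labels' protocols, total RNA went into an Illumina TruSeq preparation. No gene in the table has under 6 reads in both libraries.

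Symbols were found for 19265 of 19362 identifiers; GENCODE 29 (GRCh38) gave coordinates, exon lengths and 1 principal transcript per coding gene. Folds are log2 ratios with 1 CPM added, and no count model was run. Ratios carry exact Clopper-Pearson intervals. The correction used splines with 5 degrees of freedom per term, fitted to 12547 coding genes outside the lists, where it took up 36.2% of the variance. Corrected folds were had for 85.4% of tested genes. Members and lists were chosen with earlier results of these data known. Named genes are the members, CHI3L1, in each list up to 4 genes past 1.5-fold with the largest folds, the nearest genes and genes whose exons overlap those named; the cell type markers NKX2-1, PAX8, TG and the 8 of fibroblasts, and S100A10, LRP8, TFPI2, VTN, CD59, ETS1 and JUN were named after their values were seen. Some genes are not reported here. Folds, intervals and the correction were tested on simulated reads. Python 3.11.15 with NumPy 2.4.6, pandas 2.3.3, SciPy 1.17.1 and patsy was used.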

Additional observations from a re-analysis of the deposited data

How the results depend on the processing

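No alternative turned the direction of any member or of CHI3L1. A change in the CPM added cannot turn a direction, so only the other scalings and the length correction could have done so. The directions of PLAT and SERPINB2 lie within counting error, as their ratio intervals hold 1. With 10 CPM added, CHI3L1 had a log2 fold of -1.36, the genes past 1.5-fold numbered 492 higher and 1011 lower (against 1145 and 1988), and 5 list genes were lower (against 9). Centring lowered all folds by 0.10, with PLAU at 0.42, SERPINE2 at 0.86 and 686 genes higher; higher genes were then 21.1% of all past 1.5-fold, against 36.5% in the deposited scaling. A trimmed mean of log ratios nearly repeated the deposited scaling, with PLAU at 0.524 against 0.525. It changed no call of a member, but so small a shift could hardly have done so. The length correction gave 863 lower genes, PLAT -0.15, PLAUR 0.76 and SERPINE2 1.03, and higher genes were 49.1% of those past 1.5-fold. At 2-fold, 153 genes were higher and 654 lower, and 4 and 3 list genes, and no member passed. Among transcripts of at least 2000 nt, 684 genes and 5 list genes were lower, and higher genes were 59.1% of those past 1.5-fold. With principal transcript lengths, CPM per kilobase in the CHI3L1 siRNA and control siRNA libraries were 177 and 123 for PLAU, 28 and 28.5 for PLAT, 50.4 and 33.3 for PLAUR, 287 and 148 for SERPINE2 and 0.349 and 0.231 for SERPINB2. Of 88 list medians under other settings, 22 moved by over 0.1 (13 up, 9 down) and 10 changed sign.

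No paired analysis was possible because each group has 1 library, and for the same reason no setting leaves out a library. Depth limits SERPINB2, whose 13 reads with CHI3L1 siRNA and 7 with control siRNA give its ratio an interval of 0.559 to 4.46.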
